A study of Homo sapiens with 6 samples.

Results

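Of 9 genes for proneural basic helix-loop-helix (bHLH) factors and E proteins, 4 gave a signal above background in HEK293 cells: NEUROG2 and the 3 E proteins TCF3, TCF4 and TCF12. NEUROG2 was higher after 3 days with tRA and cAMP, at 1.5 times its control level, with an adjusted p of 0.04999 against a threshold of 0.05. The 3 E proteins did not pass the test. NEUROG1, NEUROG3, NEUROD2 and ATOH1 were not detected on any of the 6 arrays, and NEUROD1, for which no listed probe was at hand, was not analysed here.

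The genes were chosen by name, through the gene symbol annotated to each probe of a bead array, and 8 of the 9 had at least 1 probe, out of 18852 genes named on the array. They had 11 probes in all. HEK293 is an established line from human embryonic kidney that also expresses neuronal genes. The 3 control samples grew for 3 days in complete medium, and the 3 treated samples grew for 3 days in medium supplemented with tRA (all-trans retinoic acid) and cAMP, both given together, at doses not given in the sources used here. Each sample was 1 array, and the labels do not say whether the 3 samples of a group were separate cultures, and every p-value below rests on the scatter of these arrays alone, some or all of it possibly technical. All control arrays occupied the first positions of the chip and all treated arrays the last, so position and treatment cannot be told apart.

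Proneural factors are transcription factors that start neuronal differentiation when they are made in a progenitor. NEUROG1, NEUROG2 and ATOH1 act early in the nervous system, NEUROD1 and NEUROD2 act later in differentiating neurons, and NEUROG3 specifies the endocrine cells of the pancreas. Each binds E-box DNA (CANNTG) as a heterodimer with a broadly expressed E protein. ID proteins take E proteins into dimers that cannot bind DNA, and many, not all, HES and HEY proteins are targets of Notch signalling that repress proneural genes.

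The deposited values are raw bead intensities on a linear scale with a detection p-value, the share of negative control probes at least as bright as the probe. A probe was called detected on an array where this p was under 0.01. The median raw intensity of the arrays lay between 229 and 271, lowest on the array of treated replicate 3 and highest on that of control replicate 1. Between 30.3% and 33.0% of 48803 probes were detected per array, and the lowest detected raw intensity lay between 359 and 420. Tests used normalized log2 intensities and limma, with adjustment over all 9944 genes that had a probe detected on all 3 arrays of at least 1 group. Of genes listed as known to respond to the treatment, all 7 of 7 with a probe were higher, where 1.11% of all tested genes were higher. The list was written with earlier results of these data known, so this count is a description. Among the 7, CYP26A1, the enzyme that degrades retinoic acid, was 50.6-fold higher (adjusted p = 5.53e-09, limma). CGA, a cAMP-responsive hormone subunit gene not detected on any control array, was at least 49.3-fold higher on the background-corrected scale (adjusted p = 6e-09, limma). With the background left in the signal, the log2 differences of CYP26A1 and CGA were 4.90 and 4.63, against 5.66 and 5.89. The HEK293 marker list had 6 of 14 genes tested, VIM, CDH2, KRT8, KRT18, ENO2 and NEFL. NEFM, NEFH, INA, PAX2, PAX8, EPCAM and CHGA of that list were not detected on any array.

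Each of the 4 detected factors was detected on all 3 control arrays and on all 3 treated arrays, so no factor was detected in 1 group and undetected in the other. Of the 4 tested, 1 was higher and 0 were lower by limma, where 1.11% of all tested genes were higher and 1.46% were lower. At an unadjusted p under 0.05 the count was also 1, where 14.2% of all tested genes had such a p. In 16 other settings 0 factors were lower, and the count of higher factors went from 1 to 0 in 15 of them. The groups did not overlap in normalized level for 1 of the 4, where 18.9% of all tested genes had groups that did not overlap.

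**Figure D1:**
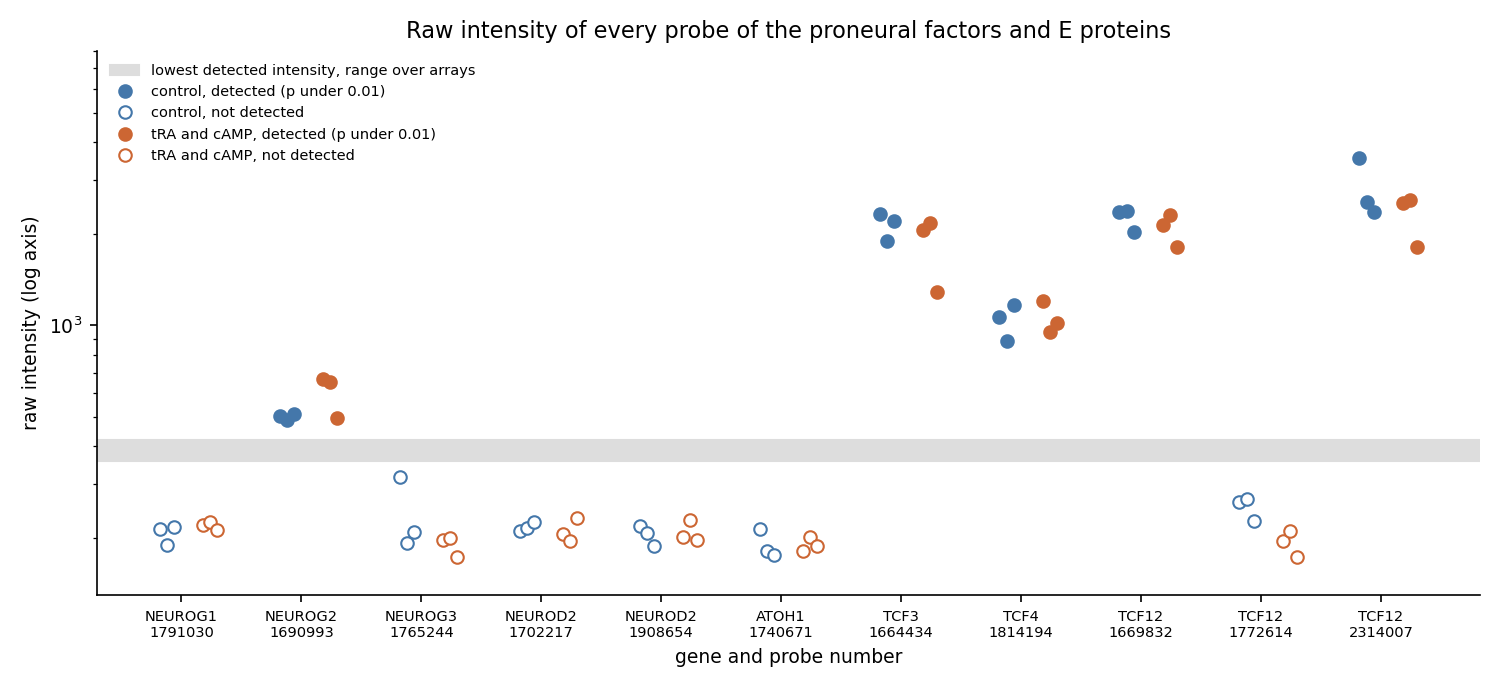
Raw intensity on a log axis for each of the 11 probes, with 1 point per array, control in blue and tRA and cAMP in orange, filled where detected. The grey band is the range over arrays of the lowest detected intensity, 359 to 420. NEUROG2 sits just above the band, the E proteins well above it, and the other proneural factors and 1 TCF12 probe below it.

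NEUROG2 encodes neurogenin 2, which drives progenitors of the cortex, spinal cord and sensory ganglia into the neuronal fate. Its single probe had raw intensities of 502, 489 and 511 in control replicates 1 to 3, and of 668, 651 and 495 in treated replicates 1 to 3. Treated replicates 1 and 2 lay above every control and treated replicate 3 lay among them, on the array that was dimmest as a whole. On the raw scale the groups therefore overlapped.

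After background correction and normalization the NEUROG2 log2 levels were 7.95, 8.26 and 8.21 in the controls and 8.87, 8.72 and 8.59 in the treated samples. Every treated sample then lay above every control. The mean was 8.14 ± 0.17 (SD, n = 3) in controls and 8.73 ± 0.14 (SD, n = 3) in treated samples. The difference was 0.59 on the log2 scale (standard error 0.13, 95% confidence interval 0.29 to 0.88), a fold of 1.5 (1.22 to 1.85), with an adjusted p of 0.04999 by limma. Ordered by p, NEUROG2 was number 255 of 9944 genes, the last of the 110 higher and 145 lower genes that passed.

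The NEUROG2 probe was close to background. Its detection p was 0.00527 on each control array, and 0, 0.00132 and 0 on the treated arrays. The call did not hold in the fit over single probes, where 2.01% of 14923 probes passed in either direction and NEUROG2 had an adjusted p of 0.0675. The difference kept its direction in 16 of 16 other settings, between 0.36 and 0.66 on the log2 scale, and passed the threshold in 1 of them. NEUROG2 has a single probe, so a change of filter, probe rule, variance model or block left its difference at 0.59. In those settings the direction was fixed in advance, and the 1 that passed, the mean of probes, was among them. Leaving out any of the 6 arrays ended the call (adjusted p 0.0701 to 0.161, limma). The smallest difference, 0.36, came from leaving the background in the signal (adjusted p = 0.101, limma).

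**Figure D2:**
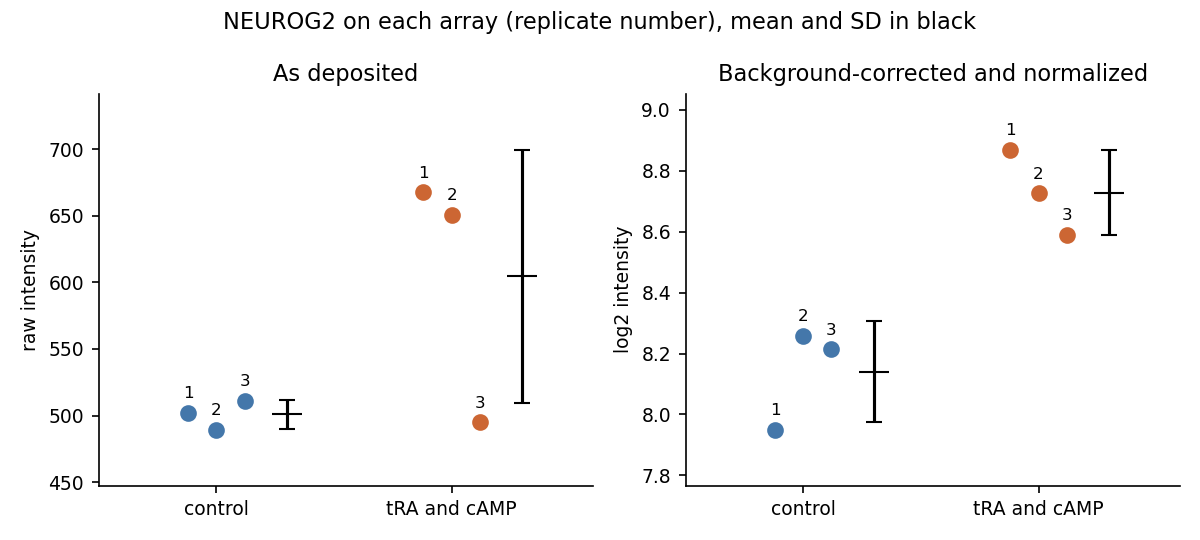
NEUROG2 raw intensity (left) and normalized log2 intensity (right) on each array, numbered by replicate, with the mean and SD in black. Treated replicate 3, at 495, falls among the controls on the raw scale and lies above them, at 8.59, after normalization.

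**Figure D3:**
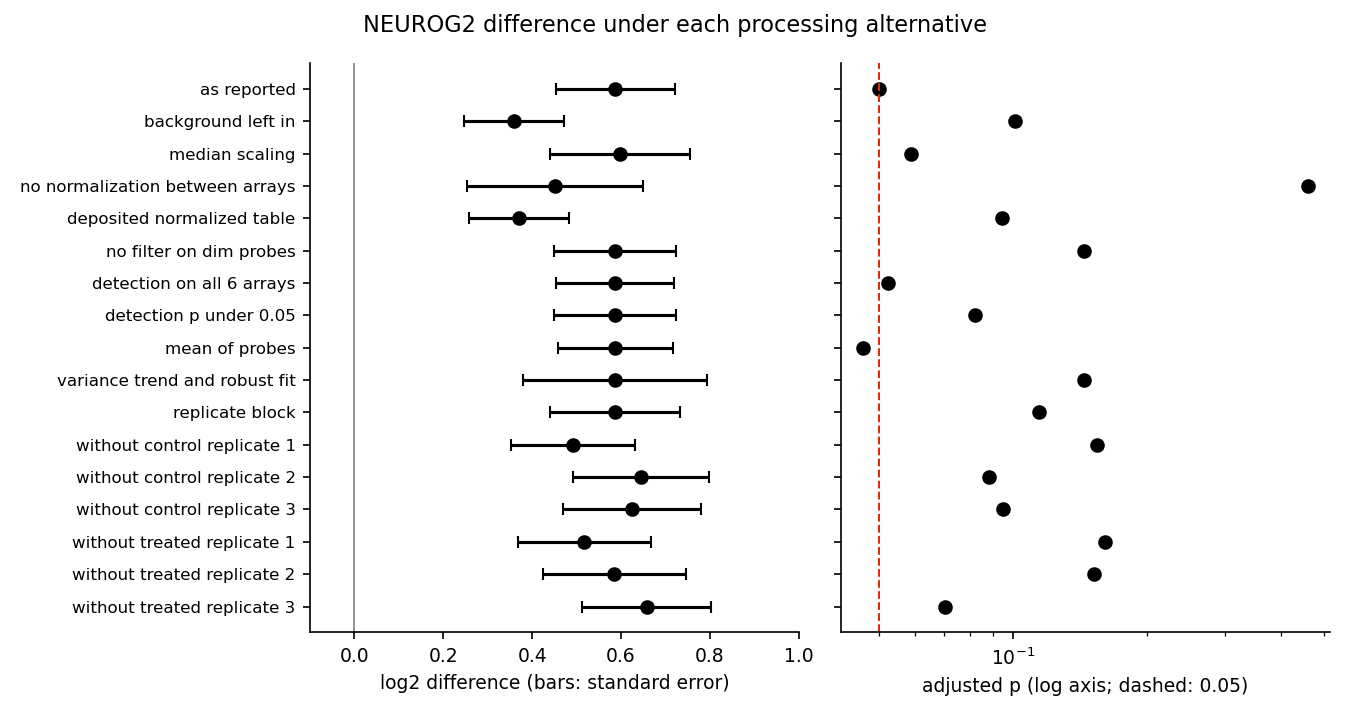
The NEUROG2 log2 difference with its standard error (left) and its adjusted p on a log axis (right) under each processing setting. All differences lie between 0.36 and 0.66, and the adjusted p is on the left of the dashed line as reported (0.04999) and with the mean of probes (0.046).

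The promoter of NEUROG2 is shown because it is the gene of the set that passed the test. The 250 bases before its RefSeq start (GRCh38.p14, chr4:112516181-112516430, minus strand), 5′ to 3′, with the TATA-like motif TATATAA in capitals, are as follows.
NEUROG2: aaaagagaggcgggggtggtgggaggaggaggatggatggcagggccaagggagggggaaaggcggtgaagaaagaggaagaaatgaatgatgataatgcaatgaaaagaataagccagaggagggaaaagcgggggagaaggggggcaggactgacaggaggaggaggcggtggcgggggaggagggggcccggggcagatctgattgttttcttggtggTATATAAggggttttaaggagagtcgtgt

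On both strands this window held 1 TATATAA, found in 2.42% of 35116 RefSeq promoter windows of the same length, and 56% of its bases were G or C, against a median of 58%. It held no E-box CANNTG (present in 61.8% of windows) and no cAMP response element TGACGTCA (1.65%) or shorter TGACG (21.2%). It also held no AGGTCA (12.1%), which is a part of a retinoic acid receptor site. Whole receptor sites and other forms of this part were not searched. TGACG lies within TGACGTCA. These letters say nothing of sites elsewhere or of binding. The same window of NEUROG1 (chr5:135535965-135536214, minus strand) held 1 AGGTCA, and that of NEUROG3 (chr10:69573423-69573672, minus strand) held 1 E-box. Of the genes outside the neurogenins, NEUROD2 had 3 CANNTG matches and ATOH1 had 1, while the window of the single TCF3 start had 0. TATATAA was not particular to NEUROG2 among the 9 genes. The NEUROD1 window held 1, and the window of a TCF4 start (chr18:55320936-55321185, minus strand) held 2.

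NEUROG2, which was detected, and NEUROG1, which was not, resemble each other next to the start. The last 50 bases before the start are set out for the 3 neurogenins, with capitals in the first pair marking runs of 4 or more bases that NEUROG1 and NEUROG2 share at the same distance from the start. NEUROG3 shares no such run with NEUROG2 at the same distance and on the same strand, and has no capitals.
NEUROG1: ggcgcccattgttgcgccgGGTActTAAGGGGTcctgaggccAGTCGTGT
NEUROG2: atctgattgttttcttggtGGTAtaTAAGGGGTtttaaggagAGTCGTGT
NEUROG3: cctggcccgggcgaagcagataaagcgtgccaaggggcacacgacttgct

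At the same distance from the start, 28 of these 50 bases were identical between NEUROG1 and NEUROG2, against 51 of the 200 bases further upstream. Between NEUROG2 and NEUROG3 it was 6 of 50. The last run continues 4 bases past the start, and the whole of 12 bases occurs in 2 of the 35116 windows of 300 bases, these 2 genes. On the other strand NEUROG3 holds 11 of these 12 bases, as their reverse complement, from 15 to 5 bases before its start. On either strand those 11 bases occur in 3 of the 35116 windows, those of the 3 neurogenins. The stretch and its length were chosen after the sequences were seen.

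NEUROG1, the neurogenin of cranial sensory neurons, had raw intensities of 214, 190.3 and 217 in controls and 221, 226 and 213 in treated samples. Its detection p ran from 0.233 to 0.759, so on each array many negative controls were brighter. NEUROG3 had 318, 193 and 209 in controls and 198, 200.03 and 173 in treated samples. One array stood apart, control replicate 1, where the detection p of NEUROG3 was 0.0408, under 0.05 but not under 0.01. On the other arrays it was 0.427 or above.

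ATOH1, the factor of cerebellar granule neurons and inner ear hair cells, had 215, 181 and 176 in controls and 181, 202 and 189 in treated samples, with a detection p of 0.555 or above. NEUROD2, a factor of maturing cortical neurons, was read by 2 probes. Their raw intensities lay between 196 and 233 and between 188 and 229.8, with detection p-values of 0.129 to 0.655 and 0.248 to 0.781. The treated and control arrays overlapped for NEUROD2 on both probes, and neither rose above the negative controls.

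No difference between the groups is drawn for the 4 undetected factors, whose values lie at background. Such a probe shows that its transcript was not detectable on these arrays, not that it was absent.

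TCF3, TCF4 and TCF12 encode the 3 mammalian E proteins, the dimer partners of the proneural factors. The names TCF3 and TCF4 were once used for TCF7L1 and TCF7L2 of the Wnt pathway, so their probes were checked: they carry the gene numbers 6929 and 6925 of the E proteins, and TCF7L1 and TCF7L2 have probes of their own. All 3 E proteins were detected on every array with a detection p of 0, meaning no negative control was as bright.

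TCF3 had raw intensities of 2332, 1892 and 2208 in controls and 2061, 2170.1 and 1285 in treated samples. Treated replicate 3 was the lowest, also after normalization (log2 10.40, against 10.86 and 10.84 in the other treated samples), and the other treated samples lay among the controls. The mean log2 level was 10.87 ± 0.08 (SD, n = 3) in controls and 10.70 ± 0.26 (SD, n = 3) in treated samples. The difference of -0.17 (95% interval -0.50 to 0.15, fold 0.709 to 1.11) did not pass (adjusted p = 0.678, limma).

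TCF4, the E protein mutated in Pitt-Hopkins syndrome, had raw intensities of 1064, 891 and 1171 in controls and 1204, 955 and 1017 in treated samples. The groups overlapped throughout. The mean log2 level was 9.64 ± 0.21 (SD, n = 3) in controls and 9.81 ± 0.30 (SD, n = 3) in treated samples, and the difference of 0.17 (95% interval -0.21 to 0.54, fold 0.862 to 1.46) did not pass (adjusted p = 0.750, limma). RefSeq lists 10 starts for TCF4 and 5 for TCF12, and 1 probe does not tell which of them were used.

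TCF12 was read by 3 probes designed on different transcript records. The brightest, which stands for the gene, had raw intensities of 3556, 2548 and 2365 in controls and 2525, 2593 and 1808 in treated samples. Control replicate 1 was the highest and treated replicate 3 the lowest, with the other arrays of both groups intermixed. The mean log2 level was 11.28 ± 0.22 (SD, n = 3) in controls and 11.09 ± 0.12 (SD, n = 3) in treated samples, a difference of -0.19 (95% interval -0.50 to 0.13, fold 0.706 to 1.09; adjusted p = 0.621, limma).

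The second TCF12 probe had raw intensities of 2369, 2377 and 2021 in controls and 2132, 2301 and 1805 in treated samples. Its difference was -0.02 on the log2 scale (standard error 0.13; adjusted p = 0.975 over single probes, limma), nearer to 0 than that of the first. The third TCF12 probe was not detected on any array, with raw intensities of 174 to 269 and a detection p of 0.083 or above. Across 16 other settings none of the 3 E proteins passed, and each kept the sign of its difference in all 16. A change of filter, variance model or block alone left these differences as they were, so it could not turn a sign. The intervals leave room for changes of up to about the size seen for NEUROG2 in TCF4, whose upper bound of 1.46 is close to 1.5, so a p above the threshold does not show that the E proteins stayed the same.

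The ID genes, inhibitors of E proteins, had 4 of 4 members tested, with 2 higher and 0 lower, and a median log2 difference of 0.79 against 0.00 over all tested genes. Of all tested genes 1.11% were higher and 1.46% were lower, the shares to set beside this count and those of the lists below. ID1 had raw intensities of 1223, 1046 and 1360.0 in controls and 1971, 2778 and 2444 in treated samples, and every treated sample was above every control. It was 2.35-fold higher (log2 difference 1.23, standard error 0.18, adjusted p = 0.00407, limma), and passed in all 16 other settings. ID3 had 4726, 3691 and 5238 in controls and 7205, 10349 and 9627 in treated samples, again without overlap. It was 2.17-fold higher (log2 difference 1.11, standard error 0.18, adjusted p = 0.00871, limma), and lost the call in 1 of 16 settings, when dim probes were kept in (adjusted p = 0.0517).

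ID2 and ID4 did not pass. ID2 had a log2 difference of 0.47 (adjusted p = 0.122, limma) and ID4 one of 0.16 (adjusted p = 0.813, limma). ID2 passed in 2 of 16 settings, with median scaling and with a variance trend. The summed normalized level of the 4 ID genes, on the linear scale, lay between 8437 and 11040 in the control samples and between 14500 and 19670 in the treated ones. ID protein, and its binding to E proteins, was not measured.

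Of the 13 HES, HEY and BHLHE40/41 genes, 12 had a probe and 8 were tested, with a median log2 difference of 0.13. Of the 8, 2 were higher and 0 lower, against 1.11% and 1.46% of all tested genes. HES5, a Notch target that holds neural progenitors undifferentiated, had raw intensities of 952, 832 and 820.3 in controls and 1095, 1268 and 1022 in treated samples. Every treated sample was above every control, and HES5 was 1.52-fold higher (log2 difference 0.60, standard error 0.12, adjusted p = 0.0263, limma). HEY1, another Notch target, had 13685, 12399 and 13785 in controls and 17776, 19779.5 and 15794 in treated samples, and was 1.42-fold higher (log2 difference 0.51, standard error 0.11, adjusted p = 0.0487, limma). These values are of the brighter of its 2 tested probes. With the mean of probes the HEY1 difference was 0.44 and did not pass (adjusted p = 0.114, limma).

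Both calls rest on a narrow margin: HES5 passed in 8 and HEY1 in 4 of 16 other settings. Without control replicate 1, 2 or 3, or without treated replicate 2 or 3, HES5 no longer passed, and without any single array HEY1 no longer passed. The other tested genes of this list had log2 differences of 0.31 (HES4), 0.23 (HES1), 0.04 (HES6), 0.03 (HEYL), 0.00 (BHLHE40) and -0.25 (HEY2), none past the threshold. HES6 is also counted among the targets of proneural factors below. The signs for HES6, HEYL and BHLHE40 turned in some settings. HES2, HES3 and HES7 were not detected on any array, and BHLHE41 was detected on 1 array of each group and not tested.

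**Figure D4:**
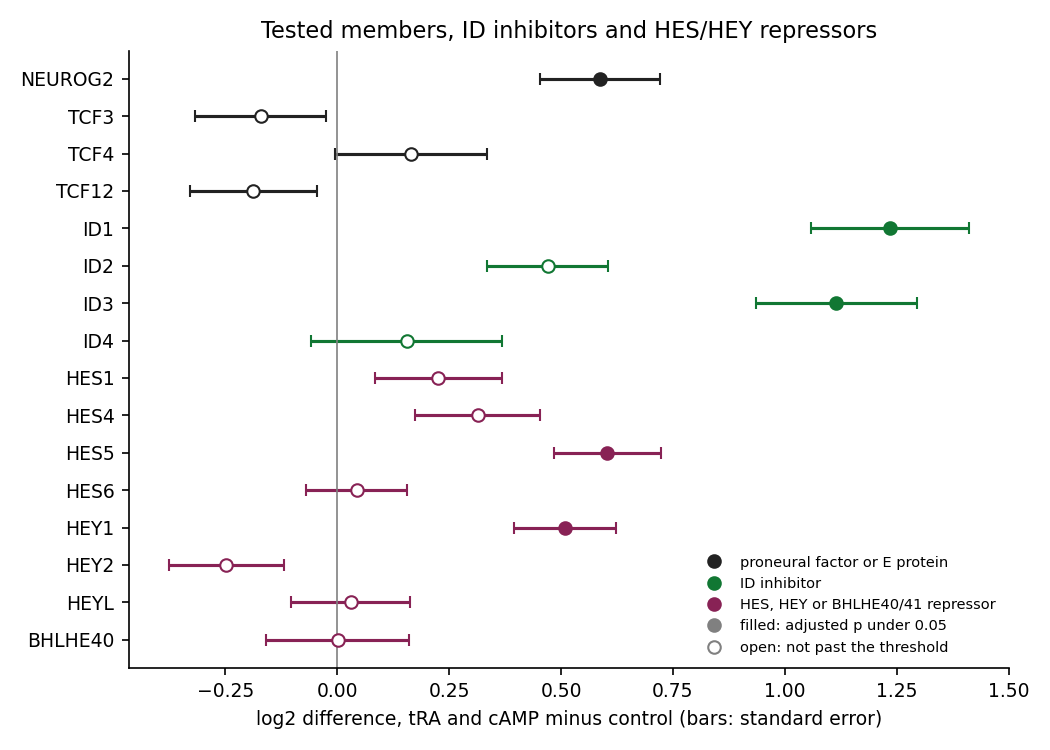
Log2 difference, tRA and cAMP minus control, with its standard error, for the 4 tested proneural factors and E proteins (black), the 4 ID genes (green) and the 8 HES, HEY and BHLHE40 genes (purple); filled points passed the test. ID1 and ID3 lie farthest to the right, at 1.23 and 1.11, and the 3 E proteins lie near 0.

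Of 41 further tissue-restricted bHLH activators, such as the ASCL, OLIG, MYOD and TWIST families, 37 had a probe, 10 were detected on at least 1 array and 6 were tested. Among these 0 were higher and 1 was lower, against 1.11% and 1.46% of all tested genes. HAND1, a factor of heart and placenta, had raw intensities of 5657, 4926 and 4754 in controls and 3599.9, 3825 and 2961 in treated samples. Its difference was -0.49 on the log2 scale (standard error 0.11, adjusted p = 0.0492, limma), and it passed in 4 of 16 other settings, with the call lost without any single array. The other tested activators, LYL1, MESP1, TWIST2, NHLH2 and TWIST1, had differences between 0.00 and 0.37 and did not pass.

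Of 16 corepressors, coactivators and LIM partners of E proteins and proneural factors, 9 were tested. Of the 9, 1 was higher and 1 lower, against 1.11% and 1.46% of all tested genes. LMO1, a LIM-only protein that joins bHLH complexes, had raw intensities of 421, 363 and 322 in controls and 468, 803 and 564 in treated samples. It was detected on 2 of 3 control arrays and on all treated arrays, and was 2.69-fold higher (log2 difference 1.43, standard error 0.26, adjusted p = 0.0161, limma). With the background left in, its log2 difference was 0.78, and it was 0.81 in the authors' deposited normalized table. The LMO1 call was lost without control replicate 3, treated replicate 2 or treated replicate 3, and with no filter on dim probes.

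RUNX1T1, of the ETO family of corepressors that bind E proteins, had raw intensities of 877, 803 and 889 in controls and 643, 449 and 462 in treated samples. All treated samples were below all controls (log2 difference -0.93, standard error 0.20, adjusted p = 0.0435, limma), and the call passed in 8 of 16 other settings. Leaving out treated replicate 2 or 3, or any of the 3 control samples, ended it. The other tested cofactors, TLE1, TLE3, TLE4, EP300, CREBBP, LMO4 and CBFA2T2, had differences between -0.18 and 0.51 and did not pass.

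Of 27 known targets of proneural factors, 17 were tested, with a median log2 difference of -0.16. Among them 1 was higher and 1 lower, against 1.11% and 1.46% of all tested genes. An unadjusted p under 0.05 was found for 8 of the 17, against 14.2% of all tested genes. Of these 8, EOMES and MYT1 were higher, and CXCR4, EBF1, DLL1, INSM1, EBF2 and ISL1 were lower. EOMES, a T-box factor of cortical intermediate progenitors downstream of NEUROG2 in mouse cortex, had raw intensities of 545, 466 and 478 in controls and 739, 649 and 569.8 in treated samples. It was 1.72-fold higher without overlap (log2 difference 0.78, standard error 0.13, adjusted p = 0.0085, limma). Its control signal was close to background, like that of NEUROG2, and with the background left in EOMES had a log2 difference of 0.49. It kept the call in 15 of 16 other settings, and lost it without normalization between arrays (adjusted p = 0.139).

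CXCR4, the receptor of the chemokine CXCL12, had raw intensities of 1730.4, 1175 and 1306 in controls and 756, 879.8 and 586 in treated samples. All treated samples were below all controls, with a log2 difference of -1.03 (standard error 0.14, adjusted p = 0.00327, limma), a call kept in all 16 other settings. The Notch ligands DLL1 and DLL3, direct targets of proneural factors, had differences of -0.33 and 0.13 and did not pass. NEUROD4, NHLH1, ELAVL3, ELAVL4, DCX, TBR1, DLL4 and MFNG were not detected on any array.

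Targets of E proteins were taken from 2 settings. Of 11 lymphocyte targets 3 were tested, with 0 higher and 0 lower by limma. An unadjusted p under 0.05 was found for 2 of the 3, CD79B and EBF1, against 14.2% of all tested genes. EBF1 is the same gene already counted among the proneural targets. RAG1, RAG2, PTCRA, IGLL1, VPREB1, CD79A, PAX5 and GFI1B were not detected on any array. Of 11 targets in growth and adhesion 6 were tested, with 0 higher and 1 lower, against 1.11% and 1.46% of all tested genes. CDKN1C, a cyclin-dependent kinase inhibitor, had raw intensities of 1068, 1093 and 1506 in controls and 737, 608 and 516 in treated samples. Its log2 difference was -1.15 (standard error 0.20, adjusted p = 0.0142, limma), a call kept in 12 of 16 other settings. It was lost without control replicate 2, treated replicate 2 or treated replicate 3, and when dim probes were kept in (adjusted p = 0.0729). CDKN1A, CDKN2A and CDKN2B, other inhibitors of the cell cycle in this list, had differences of -0.40, -0.23 and -0.32 and did not pass.

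**Figure D5:**
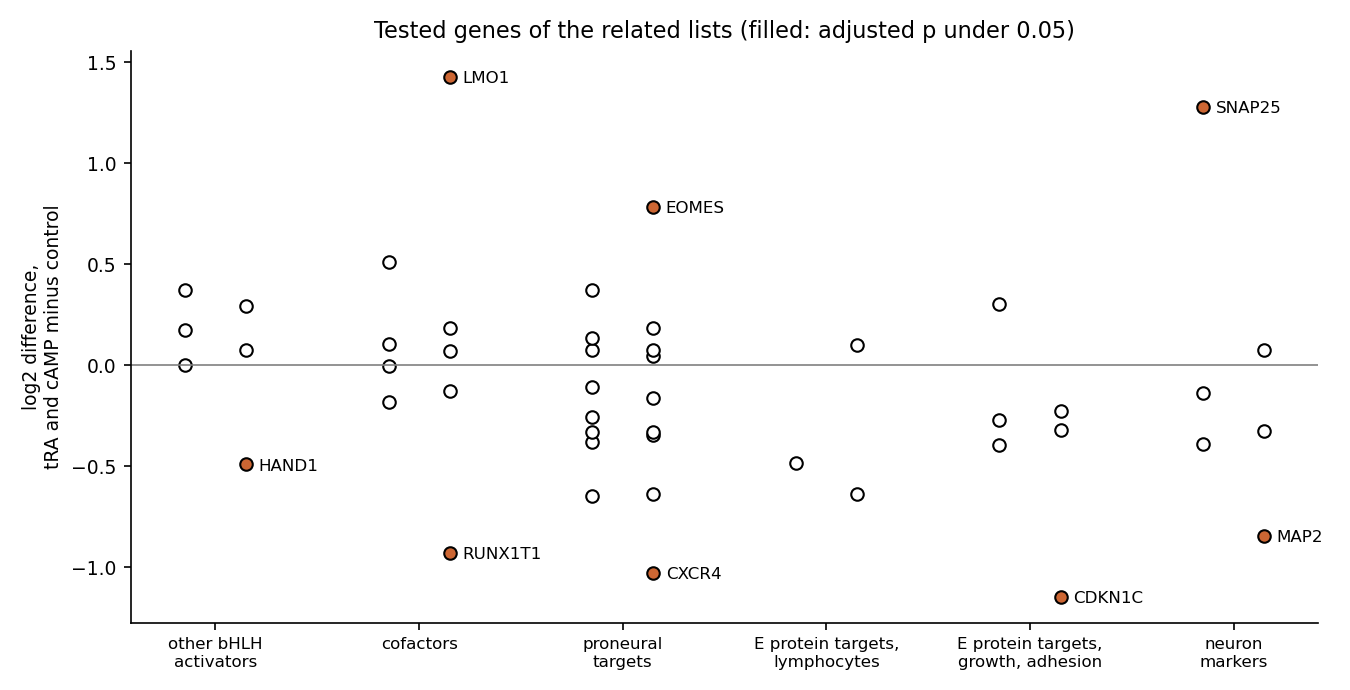
Log2 difference, tRA and cAMP minus control, of each tested gene in 6 related lists, 1 point per gene; filled, named points passed the test. Called genes lie on both sides of 0 among the cofactors, the proneural targets and the neuron markers, from LMO1 at 1.43 to CXCR4 at -1.03, and CDKN1C lies at -1.15 among the E protein targets of growth and adhesion.

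Markers of neurons and of other cell types were read beside these results, although the samples were of the HEK293 line. Of 15 neuron markers 6 were tested, with 1 higher and 1 lower, against 1.11% and 1.46% of all tested genes. The higher one was SNAP25, a synaptic vesicle fusion protein (log2 difference 1.28, adjusted p = 0.00171, limma). The lower one was MAP2, a dendritic microtubule protein (-0.84, adjusted p = 0.0213, limma). SNAP25 had 2 tested probes, and its difference was 0.79 with the mean of probes and 0.88 with the background left in. The SNAP25 call was kept in all 16 other settings. MAP2 was detected on 1 treated array, and its call passed in 10 of 15 other settings, and leaving out treated replicate 1 or 3, or control replicate 1 or 2, ended it. RBFOX3, SYP, DCX, ELAVL3, ELAVL4, INA and NEFM were not detected on any array. The remaining tested markers, TUBB3 (0.07), NEFL (-0.14), SYT1 (-0.33) and GAP43 (-0.39), did not pass, and the median log2 difference of the list was -0.23. The summed normalized level of the neuron markers lay between 5660 and 5878 in controls and between 5900.0 and 6126 in treated samples. This sum takes in SNAP25 and undetected markers at background, so it does not show that the list as a whole was higher.

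Of 9 fibroblast markers 3 were tested and 2 were lower by limma, against 1.46% of all tested genes. The 2 were COL3A1 (log2 difference -1.37) and LUM (-1.56, and -0.90 with the background left in). DCN, PDGFRB, THY1, FAP, POSTN and COL1A2 were not detected. The other tested marker, COL1A1, was detected on every array and did not pass (log2 difference -0.15, adjusted p = 0.76, limma). The summed level of the fibroblast list lay between 5848 and 6433 in controls and between 2394 and 3242 in treated samples. COL3A1 was by far the brightest tested marker of the list, with mean log2 levels of 12.24 in controls and 10.87 in treated samples. The sum largely follows COL3A1, so it does not show that the list as a whole was lower. Of 11 blood markers 1 was tested and did not pass, and PTPRC was not detected. Of 6 endothelial markers 1 was tested and lower, VWF (-1.52, and -0.82 with the background left in), while CDH5 and KDR were not detected. These genes were read as transcripts of the HEK293 samples, not as a sign that such cells were present. Any part of such cells in the differences above was not tested. In bulk RNA fewer cells with a transcript and less of it per cell cannot be told apart.

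The genes whose normalized level followed NEUROG2 most closely over the 6 arrays were SHROOM3 (Pearson r 0.995), PPM1L (0.992) and GPR137 (0.991), among 56 genes at 0.95 or above. The 6 points include the difference between the groups, so these values are a description. SHROOM3 had a log2 difference of 0.55 (adjusted p = 0.0589, limma), GPR137 one of 0.37 (adjusted p = 0.172) and PPM1L one of 0.17 (adjusted p = 0.571), so none of the 3 passed.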

How the data were processed

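Biotin-labelled cRNA of 6 HEK293 samples (3 control, 3 tRA and cAMP; groups from the titles) was hybridized to Illumina bead arrays, per the labels. The deposited intensity values are BeadStudio's average bead signal per probe (the tool is named in the submitters' processing notes, with no version in the sources used here), linear and not normalized between arrays. Beside each intensity the authors deposited a detection p-value. A second deposited intensity table, normalized by the authors in a way not given in the sources used here, served as an alternative only.

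Signals were background-corrected and quantile-normalized with neqc (limma 3.58.1, R 4.3.3; offset 16, with 759 negative controls read off the steps of the detection p-value) and taken to log2. The platform annotation gave 1 gene for 28098 of 48803 probes and several for 13, and did not list 20692. A probe was tested (14923 in all) if either group had it detected, at p under 0.01, on each of its 3 arrays, and the brightest tested probe stood for a gene. Differences came from lmFit and eBayes without covariates, with Benjamini-Hochberg adjustment. The fit was also run on simulated normalized levels with known changes larger than that of NEUROG2. These levels were drawn from the model of the fit itself, so the run does not cover background correction, normalization, the filter or smaller changes. Summed levels of a list add, on the linear scale, the normalized values of its genes. A gene not detected on any array of a group has a bound only, from the lowest detected signal. The number of arrays limits the precision.

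The members and the gene lists were chosen with earlier results of these data known. Named are all members, every tested ID and HES/HEY gene, up to 4 called genes per other list, the 3 genes most correlated with a called member, and genes of the treatment check. Further genes that did not pass or were not detected are named as examples, chosen after their values were seen. Promoter sequences are from RefSeq (GRCh38.p14). Replicates of the same number were not paired in the fit, because the labels state no pairing. Their deviations correlated at 0.0549, -0.0472 and -0.0359, which cannot show whether they shared a culture or a day. Alternatives covered background, normalization, filter, probe rule, variance model, replicate block and the omission of single arrays. Figures were made with matplotlib.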

Additional observations from a re-analysis of the deposited data

How the results depend on the processing

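The counts of detected factors, 4 in each group, did not move with a detection p under 0.05 or with detection on 1 array, and 0 factors were lower under every setting run. The count of higher factors fell from 1 to 0 with the background left in, median scaling, no normalization, the authors' deposited normalized table, no filter, detection on all 6 arrays, a detection p under 0.05, a variance trend with a robust fit and the replicate block, and also without any single array (0 to 0). The mean of probes kept it at 1. The adjusted p of NEUROG2 in these settings was 0.101, 0.0589, 0.46, 0.0946, 0.144, 0.0524, 0.0821, 0.144 and 0.115 (limma), and its difference did not fall under 0.36.

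Over all genes, 110 were higher and 145 lower. Without normalization 43 were higher and 120 lower, the median gene shifted to -0.10, and the share of calls that were higher went from 43.1% to 26.4%; the NEUROG2 difference of 0.45 stands against that shift. With median scaling 134 were higher and 126 lower, a share of 51.5% higher, and the median gene shifted to 0.10. With no filter 53 were higher and 78 lower, with 18852 genes tested, and with detection on all 6 arrays 89 were lower. Leaving out single arrays gave 52 to 83 higher and 85 to 113 lower genes. The replicate block, although the labels do not say whether samples of the same number were paired, gave 84 higher and 110 lower genes. It ended the calls of NEUROG2, HAND1, HES5, HEY1 and RUNX1T1 among the genes named here.

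The signs that turned belonged to genes that did not pass. Without normalization the values were -0.10 for BHLHE40, -0.063 for HES6 and -0.073 for HEYL. With single arrays left out BHLHE40 ran from -0.134 to 0.126, HEYL from -0.063 to 0.0892 and ID4 from -0.0759 to 0.373. The cause was not tested. Signal close to background limits NEUROG2, EOMES, LMO1, LUM, VWF and MAP2, among others, and 3 arrays per group limit every interval.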
